A study of Homo sapiens with 10 samples.

Results

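A set of 10 chaperones and folding enzymes of the endoplasmic reticulum (ER) was followed across 10 RNA sequencing libraries of SH-SY5Y, a human neuroblastoma line used as a neuron-like cell model. The 10 genes were taken by symbol (HSPA5, HSP90B1, CALR, CANX, PDIA3, PDIA4, PDIA6, HYOU1, SDF2L1 and DNAJB9). Each matched 1 of the 58174 gene entries of the deposited table, and all 10 were among the 17118 genes that were tested because their mean over the libraries reached 1 TPM. TPM (transcripts per 1000000) is a share of all transcripts, corrected for transcript length, so levels of different genes can be set side by side. Coordinates on GRCh38 are given where each gene is first described.

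The libraries fell into 4 groups from 2 experiments. For the knockdown, cells received 50 nM of an siRNA pool for 96 hours, directed against TDP-43 in 3 libraries (siTDP-43) or a control pool in 3 others (siControl). The second experiment held the genotypes, 2 homozygous libraries of the TDP-43 mutation N352S (81 and 82) and 2 of wild-type TDP-43 (79 and 80), and the series design attributes the mutant to genome editing. No siRNA is stated for the genotype libraries. The design calls the libraries of a group biological replicates, but the labels name neither separate cultures nor clones. The p-values therefore rest on the spread among libraries, which may be technical, and a genotype may stand for 1 clone. Experiment and group cannot be told apart when a genotype group is set against siControl.

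TDP-43 is an RNA-binding protein that is lost from the nucleus in most cases of amyotrophic lateral sclerosis. The ER folds proteins bound for secretion or for membranes, and its chaperones hold unfolded chains, help sugar-bearing chains to fold and form their disulfide bonds. When unfolded proteins build up, the sensors ATF6, IRE1 (ERN1) and PERK (EIF2AK3) start the unfolded protein response, in which the factors ATF6 and XBP1 raise chaperone genes through short promoter elements read together with the CCAAT-binding factor NF-Y. The best known of these elements is the ER stress response element (ERSE), a CCAAT box and a CCACG box held at a fixed distance.

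Promoters of 7 members held one of these elements, and the matches are shown because they are the letters through which the response is known to act. RefSeq promoter windows (GRCh38.p14, from 250 bases before to 50 bases after each start) were found for 9 of the 10 genes. They were searched on both strands for ERSE (CCAAT, any 9 bases, CCACG), for ERSE-II (ATTGG, any 1 base, CCACG) and for the element UPRE (TGACGTGG). The sequences below run 5′ to 3′ on the gene's strand, and the motif is in capitals. A motif that reads on the opposite strand appears as its reverse complement.
HSPA5, chr9:125241386-125241414, minus strand: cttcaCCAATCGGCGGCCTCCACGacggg
HSP90B1, chr12:103930211-103930239, plus strand: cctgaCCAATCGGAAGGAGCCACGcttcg
HSP90B1, chr12:103930316-103930344, plus strand: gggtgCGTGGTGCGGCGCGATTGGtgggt
CALR, chr19:12938379-12938407, plus strand: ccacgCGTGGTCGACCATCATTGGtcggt
CANX, chr5:179698773-179698801, plus strand: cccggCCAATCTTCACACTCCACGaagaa
PDIA6, chr2:10812848-10812876, minus strand: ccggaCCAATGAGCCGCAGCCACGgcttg
HYOU1, chr11:119057371-119057399, minus strand: gccccgtgaCGTGGTCCAATcccaggccg
HYOU1, chr11:119057265-119057293, minus strand: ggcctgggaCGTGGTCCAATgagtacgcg
SDF2L1, chr22:21642105-21642133, plus strand: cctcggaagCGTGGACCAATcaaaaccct

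ERSE was present in windows of 5 members (HSPA5, HSP90B1, CALR, CANX and PDIA6) and in 27 of all 35116 windows (0.0769%). By symbol, as the members are counted, this was 25 of 27305 (0.0916%). ERSE-II was present in windows of HYOU1 and SDF2L1 and in 19 of all windows (0.0541%, or 0.0696% of symbols). UPRE was present in 256 of all windows (0.729%, or 0.927% of symbols), and among the members in HYOU1 only, where it overlaps the first of the ERSE-II matches above. HSP90B1 and HYOU1 each held 2 matches, CANX held its match in the windows of 3 of its 4 listed starts, and PDIA6 in 1 of 2. The windows of PDIA4 and DNAJB9 held no exact match to these letters. A match describes the sequence and was not tested as a binding site. The shares are no test of enrichment, since the elements are known from chaperone promoters such as that of HSPA5.

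HSPA5 is shown at full upstream length because its promoter is the textbook example of the response. In the 250 bases before its start (chr9:125241344-125241593, minus strand), each CCAAT box on either strand and each CCACG box on either strand is in capitals, which marks 4 CCAAT boxes and 1 CCACG box.
HSPA5 upstream: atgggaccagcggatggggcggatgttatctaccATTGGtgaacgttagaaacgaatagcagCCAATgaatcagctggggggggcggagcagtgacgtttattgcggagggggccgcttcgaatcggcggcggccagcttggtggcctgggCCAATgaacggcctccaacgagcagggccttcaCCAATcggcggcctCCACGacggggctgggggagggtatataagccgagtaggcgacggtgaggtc

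Before the members, the labels and libraries were checked. TARDBP, which encodes TDP-43, stood at 255.53, 255.57 and 256.3 TPM in control libraries and at 62.26, 63.12 and 67.67 TPM after knockdown. It stood at 195.53 and 205.39 TPM in wild-type and 122.8 and 122.33 TPM in N352S libraries, so it was also lower in the mutant (log2 fold change -0.70 ± 0.05, SE, limma adjusted p = 1.93e-05). Depth is unknown because TPM keep none. Each library had 16711 to 17398 genes at 1 TPM or more, correlations across genes within a group were 0.977 to 0.99, and the first principal component held 46.7% of the variance. Of 10 noradrenergic neuroblast markers, 9 reached 1 TPM in every library, and all 6 markers of plasma and pancreatic secretory cells, which hold much ER, were under 1 TPM in every library. Markers of mesenchymal-type neuroblastoma cells (10 genes, 7 of them at 1 TPM or more everywhere) summed to 1226 to 1255 TPM in N352S, against 711.1 to 742.8 TPM in wild-type, 746.6 to 769.8 TPM in siControl and 850.5 to 903.1 TPM in siTDP-43 libraries. The N352S sum was carried by VIM (668.2 and 706.8 TPM, beside 360.6 and 362.5 TPM in wild type) and MMP2 (497.9 and 491.9, beside 290.1 and 309.3 TPM), while CD44, YAP1 and COL3A1 were at lower TPM than in wild type. Of the 9 tested mesenchymal markers, 4 were called higher and 3 lower in N352S, with a median log2 fold change of -0.05. Noradrenergic markers summed to 4623 to 4886 TPM in N352S, 5065 to 5157 TPM in wild-type, 5094 to 5298 TPM in siControl and 5737 to 5914 TPM in siTDP-43 libraries. The siTDP-43 sum was carried mainly by CHGA (2267 to 2399 TPM, beside 1603 to 1683 TPM in siControl), and of the 10 markers 4 were called higher and 3 lower after knockdown (median 0.02). Schwann cell markers (6 genes, 2 of them under 1 TPM everywhere) summed to 66.7 to 70.3, 54.5 to 62.0, 58.4 to 58.9 and 32.8 to 35.2 TPM in the order N352S, wild type, siControl and siTDP-43. These sums were carried by PMP22, at 56.8 to 62.2, 44.7 to 50.8, 51.5 to 52.5 and 28.3 to 29.9 TPM in the same order. The part of all these markers in the results was not tested. In bulk libraries, fewer cells of a type and less RNA per cell cannot be told apart.

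The 10 chaperones together were most abundant in the wild-type libraries of the genotype experiment. Their TPM summed to 2208, 2244 and 2262 in siControl and to 2172, 2189 and 2154 in siTDP-43 libraries. They summed to 3082 and 2967 TPM in wild-type and to 2327 and 2343 TPM in N352S libraries. As a share of all transcripts this was 0.224% ± 0.003 (SD, n = 3), 0.217% ± 0.002 (n = 3), 0.302% ± 0.008 (n = 2) and 0.234% ± 0.001 (n = 2). The wild-type libraries thus lay above the other 8, which lay close together. By gene, the wild-type mean was the highest of the 4 groups for 9 members, and the N352S mean for PDIA6.

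**Figure D1:**
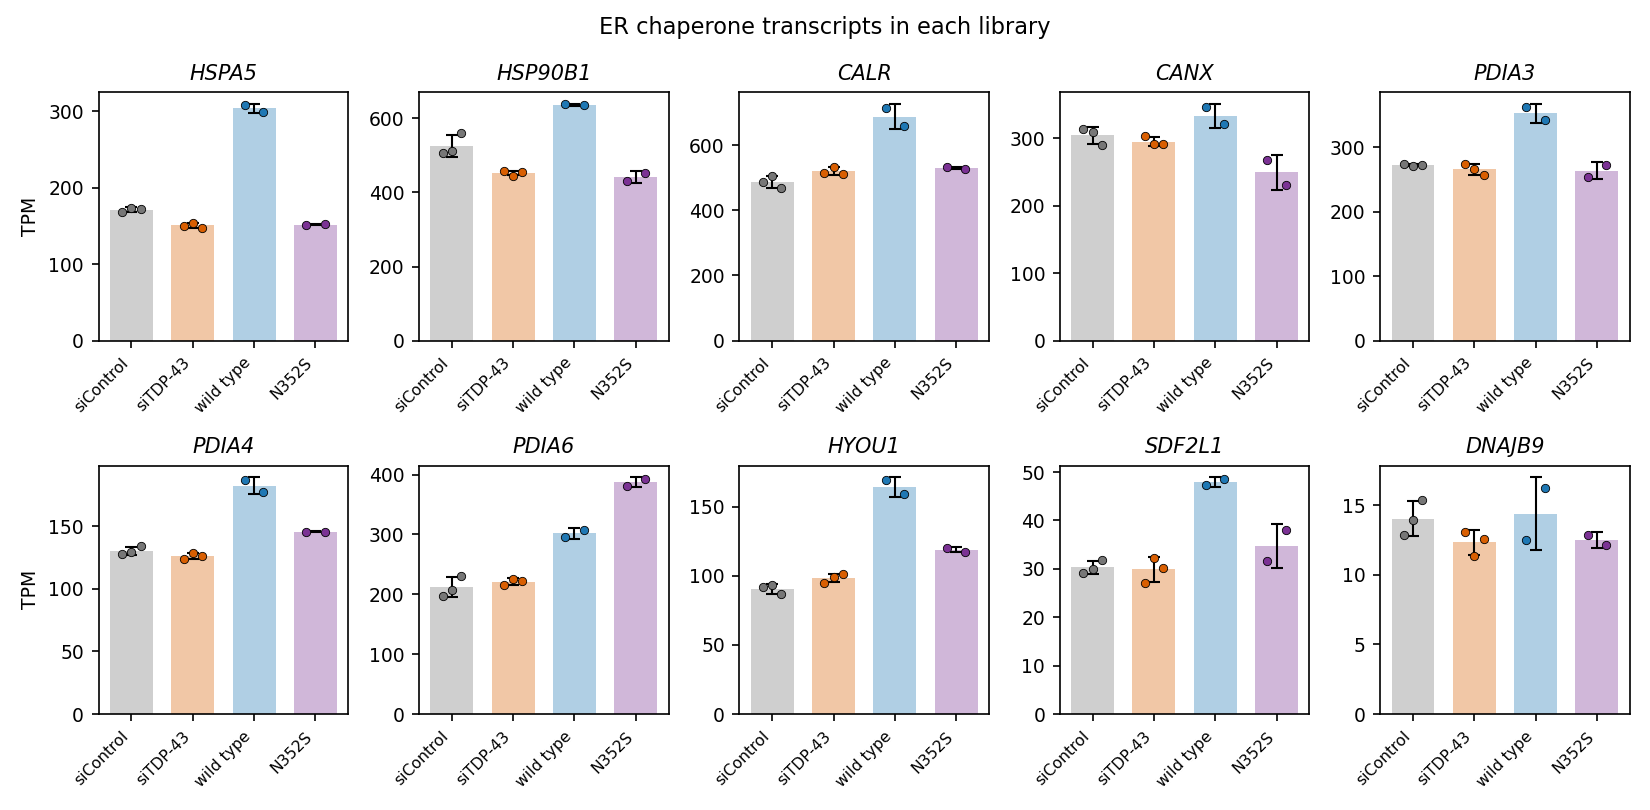
TPM (vertical axis, linear, from 0) of each ER chaperone in the 4 groups (horizontal axis). Points are libraries, bars are group means and error bars are SDs (n = 3, 3, 2 and 2), and wild type is the tallest bar in every panel but that of PDIA6, where N352S stands at 387.3 TPM against 301.7 TPM in wild type.

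Levels differed widely between the members. In siControl, mean TPM ran from HSP90B1 at 526.0 ± 29.5 (SD, n = 3) and CALR at 486.9 ± 17.5 through CANX at 304.3 ± 12.9, PDIA3 at 272.2 ± 1.87, PDIA6 at 211.8 ± 16.9, HSPA5 at 171.3 ± 2.74, PDIA4 at 130.2 ± 3.41 and HYOU1 at 90.8 ± 3.64 to SDF2L1 at 30.3 ± 1.39 and DNAJB9 at 14.1 ± 1.26, and no neighbours in this order overlapped. The order in siTDP-43 libraries was the same except that CALR stood above HSP90B1, again with no overlap between neighbours. In wild-type libraries CALR also led, PDIA3 overlapped with CANX, and HSPA5 overlapped with PDIA6. In N352S libraries PDIA6 had moved up to the third place, above PDIA3 and CANX, which overlapped with each other.

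The question of the knockdown was what depletion of TDP-43 does to these genes. HSPA5 and HSP90B1 fell after knockdown, to 88.0% and 86.0% of their control TPM, and the other 8 members were not called. That is 2 of 10 called lower, where 19.8% of all tested genes were called lower, so the count is near the background. No member was called higher in limma, where 6.19% of all tested genes were, and 2 members were higher at an unadjusted p under 0.05. The members' median log2 fold change was -0.04, beside -0.08 for all tested genes.

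HSPA5 (ENSG00000044574, chromosome 9, 125234853 to 125241330, minus strand) encodes BiP, the HSP70 chaperone of the ER lumen and the repressor of the stress sensors. Its level was 168.3, 173.7 and 172.0 TPM in siControl and 150.2, 154.1 and 147.8 TPM in siTDP-43 libraries. The groups did not overlap, and the log2 fold change was -0.18 ± 0.03 (SE, limma adjusted p = 0.00251). Under median-of-ratios scaling, which sets the typical gene equal between libraries, it was -0.10 and was no longer called (adjusted p = 0.0522).

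HSP90B1 (ENSG00000166598, chromosome 12, 103930107 to 103953645, plus strand) encodes GRP94, the HSP90 chaperone of the ER. Its level was 506.9, 511.1 and 559.9 TPM in siControl and 456.8, 445.4 and 454.7 TPM in siTDP-43 libraries. The groups again did not overlap, and the log2 fold change was -0.22 ± 0.04 (adjusted p = 0.00604). It was smaller but still called with median-of-ratios scaling (-0.13, adjusted p = 0.0482) and with quantile normalization (-0.12, 0.0258). C12orf73 overlaps HSP90B1 on the opposite strand at a group mean of at most 33.0 TPM, and its reads may not be separated.

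HYOU1 and CALR were the members with higher values in every siTDP-43 library than in any siControl library, and neither was called. HYOU1 (ENSG00000149428, chromosome 11, 119044189 to 119057202, minus strand) encodes a large HSP70-related chaperone that exchanges nucleotides on BiP. It stood at 92.0, 93.6 and 86.7 TPM in siControl and 95.1, 99.2 and 101.1 TPM in siTDP-43 libraries (log2 0.12, 95% interval 0.02 to 0.21, adjusted p = 0.0747). It was called higher when libraries were scaled otherwise, at 0.20 with median-of-ratios scaling (adjusted p = 0.0112), 0.21 with quantile normalization (0.012) and 0.16 with mitochondrially encoded genes left out (0.038). Those genes took 13.3% ± 1.19 of all TPM in the control and 15.8% ± 0.34 in the knockdown libraries (SD, n = 3 each), and their part in the result was not tested further.

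CALR (ENSG00000179218, chromosome 19, 12938578 to 12944489, plus strand) encodes calreticulin, the soluble lectin chaperone, which also buffers calcium. It stood at 486.6, 504.6 and 469.6 TPM in siControl and 513.9, 534.3 and 512.4 TPM in siTDP-43 libraries. The log2 fold change was 0.10 (95% interval 0.00 to 0.19, adjusted p = 0.12), and 0.18 with median-of-ratios scaling, under which it was called (0.018). Thus 2 members lay wholly below and 2 wholly above control, where 31.7% and 11.9% of all tested genes did so.

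The remaining 6 members overlapped between siTDP-43 and siControl. Their log2 fold changes were -0.04 for CANX (95% interval -0.18 to 0.09), -0.04 for PDIA3 (-0.13 to 0.05), -0.05 for PDIA4 (-0.12 to 0.03), 0.06 for PDIA6 (-0.06 to 0.19), -0.02 for SDF2L1 (-0.20 to 0.16) and -0.17 for DNAJB9 (-0.40 to 0.06). The adjusted p ranged from 0.247 for DNAJB9 to 0.869 for SDF2L1. The intervals of SDF2L1 and DNAJB9 include a fall as large as that of HSPA5, and the interval of PDIA6 includes a rise of that size. Across all tested genes, 76.2% of the knockdown calls were lower, and 51.7% were under median-of-ratios scaling.

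**Figure D2:**
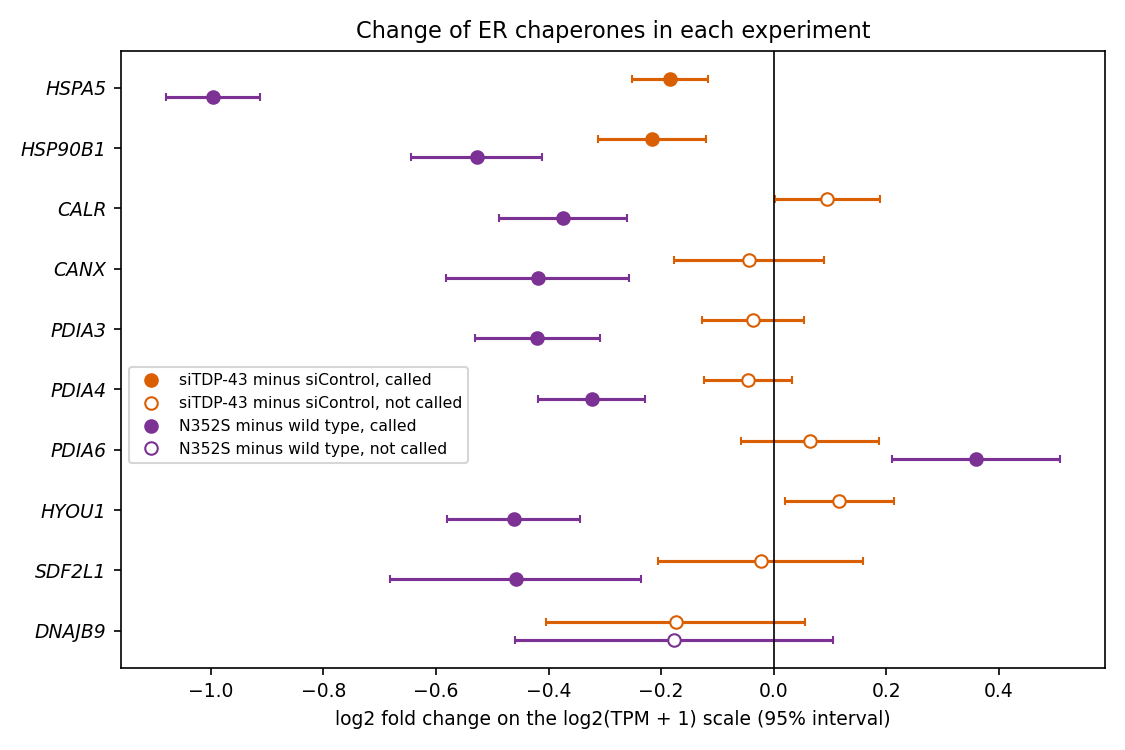
Log2 fold change on the log2(TPM + 1) scale (horizontal axis) of each ER chaperone (vertical axis) after knockdown and in N352S, with 95% intervals from limma. Filled points were called at an adjusted p under 0.05. Knockdown values lie between -0.22 and 0.12, and 9 of the N352S values are below 0, with PDIA6 at 0.36.

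The genotype comparison asked how the N352S mutation, carried on both alleles, changes the same genes. Most chaperones were lower in N352S than in wild-type cells. In all, 8 members fell and PDIA6 rose, so 8 of 10 were called lower where 11.9% of all tested genes were, and 1 was called higher where 8.28% were. The same 8 lay wholly below wild type in both libraries, and 1 wholly above, where 34.7% and 25.4% of all tested genes did so with 2 libraries a group. The members' median log2 fold change was -0.42, beside -0.03 for all tested genes.

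HSPA5 changed the most. It stood at 307.9 and 299.5 TPM in wild-type and 151.2 and 152.1 TPM in N352S libraries, so 49.9% of the wild-type level was left. The log2 fold change was -0.997 ± 0.037 (SE, limma adjusted p = 6.51e-07), and 1.9% of all tested genes had a lower one. It was the one member that was called at a fold of at least 1.5 in this comparison.

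The other partners of the HSP70 and HSP90 system moved less. HSP90B1 stood at 638.7 and 635.3 TPM in wild-type and 430.6 and 452.7 TPM in N352S libraries (log2 -0.53 ± 0.05, adjusted p = 0.000176). HYOU1 stood at 169.1 and 159.1 TPM in wild-type and 120.1 and 117.6 TPM in N352S libraries (log2 -0.46 ± 0.05, adjusted p = 0.000394). Because HSPA5 fell more than HSP90B1, there were 2.85 and 2.98 HSP90B1 transcripts per HSPA5 transcript in N352S and 2.07 and 2.12 in wild-type libraries, beside 2.94 to 3.26 in siControl and 2.89 to 3.08 in siTDP-43.

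SDF2L1 (ENSG00000128228, chromosome 22, 21642261 to 21644298, plus strand) encodes a lumenal partner of ER J-domain cochaperones. It stood at 47.3 and 48.6 TPM in wild-type and 31.6 and 38.0 TPM in N352S libraries (log2 -0.46 ± 0.10, adjusted p = 0.0115). The N352S libraries differed from each other, and the call was lost without wild type 79 (adjusted p = 0.0536), wild type 80 (0.0627) or N352S 81 (0.0648).

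DNAJB9 (ENSG00000128590, chromosome 7, 108569568 to 108574850, plus strand) encodes ERdj4, a J-domain cochaperone of BiP and a target of the IRE1 and XBP1 branch. It stood at 12.5 and 16.2 TPM in wild-type and 12.9 and 12.1 TPM in N352S libraries, which overlapped. It was the member with no call in any of the comparisons, and its log2 fold change here was -0.18 (95% interval -0.46 to 0.11, adjusted p = 0.361). It is also the least abundant member, and PNPLA8 and THAP5, both more abundant, overlap it on the opposite strand.

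The lectin chaperones both fell. CALR stood at 715.9 and 660.2 TPM in wild-type and 532.2 and 528.0 TPM in N352S libraries (log2 -0.37 ± 0.05, adjusted p = 0.00105). CANX (ENSG00000127022, chromosome 5, 179678628 to 179730925, plus strand), the membrane-bound lectin calnexin, stood at 345.8 and 320.6 TPM in wild-type and 267.6 and 231.2 TPM in N352S libraries (log2 -0.42 ± 0.07, adjusted p = 0.00388). CANX was the member with the lowest N352S level relative to siControl, at 82.0%.

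The disulfide isomerases split. PDIA3 (ENSG00000167004, chromosome 15, 43746392 to 43773279, plus strand), the ERp57 isomerase that works with the lectins, stood at 362.7 and 341.9 TPM in wild-type and 253.8 and 272.3 TPM in N352S libraries (log2 -0.42 ± 0.05, adjusted p = 0.000482). PDIA4 (ENSG00000155660, chromosome 7, 149003062 to 149028641, minus strand), the ERp72 isomerase, stood at 187.0 and 177.5 TPM in wild-type and 145.2 and 145.7 TPM in N352S libraries (log2 -0.32 ± 0.04, adjusted p = 0.000938). Both fell with no overlap between groups. The pseudogene PDIA3P1, which resembles PDIA3, was listed at means of 15.1 to 20.7 TPM, so some reads may be split between them.

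PDIA6 (ENSG00000143870, chromosome 2, 10783391 to 10837977, minus strand) encodes the P5 isomerase, which associates with BiP and acts on IRE1. It stood at 295.4 and 308.1 TPM in wild-type and 381.6 and 393.1 TPM in N352S libraries. It rose by 0.36 ± 0.07 on the log2 scale (SE, limma adjusted p = 0.00545). The transcripts of PDIA6 per transcript of PDIA4 were 2.63 and 2.70 in N352S libraries and between 1.55 and 1.76 in the other 8.

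PDIA6 lies on distal 2p, and its neighbours were set beside it, a choice made after their values were seen. The 20 nearest tested protein-coding genes on each side ran from -5.09 to 9.42 Mb from PDIA6, by lower coordinate. Of these 40 genes, 13 were called higher in N352S and none lower in limma. At an unadjusted p under 0.05, 17 were higher and 1 lower, and the median log2 fold change was 0.17. Over all tested genes, 8.28% were called higher and 11.9% lower in N352S. After knockdown, 3 of the same 40 were called higher and 16 lower (median -0.13), where 6.19% and 19.8% of all tested genes were. The neighbours of the other 9 members, 36 to 40 genes each, had medians from -0.09 to 0.06 in N352S. Of each of these sets, 2 to 6 genes were called higher and 2 to 12 lower. In N352S, the called neighbours nearest to PDIA6 were HPCAL1 at -0.48 Mb (log2 0.81) and TRIB2 at 1.93 Mb (0.43). No neighbour between HPCAL1 and TRIB2 was called. The part of position in the rise of PDIA6 was not tested.

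**Figure D3:**
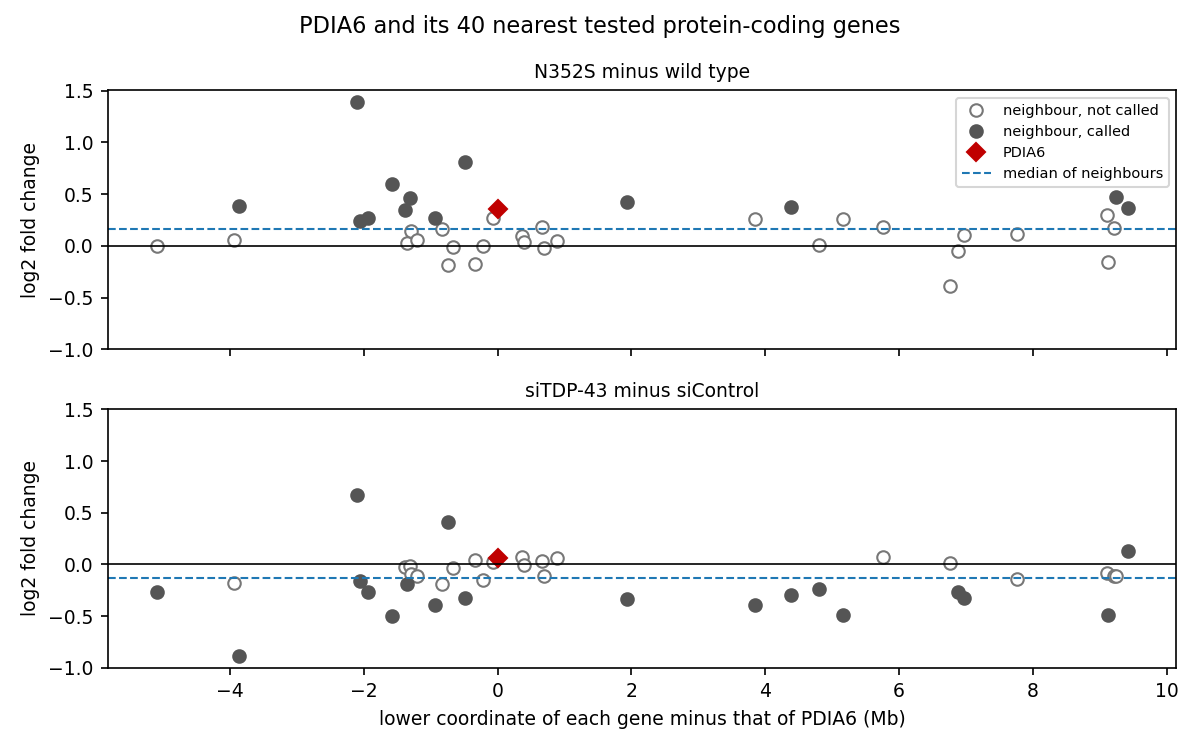
Log2 fold change (vertical axis) of PDIA6 (diamond) and its 40 nearest tested protein-coding genes, by the distance in Mb between the lower coordinates (horizontal axis), in N352S (upper) and after knockdown (lower). Filled points were called and the dashed line is the median of the neighbours, 0.17 in N352S and -0.13 after knockdown.

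The effects of the experiments were compared directly by testing their difference. For 8 of 10 members the N352S effect was lower than the knockdown effect, where 8.2% of all tested genes were called in that direction, and for PDIA6 it was higher, where 13.8% were. The difference was -0.81 ± 0.05 for HSPA5 (SE, limma adjusted p = 1.16e-05) and -0.58 ± 0.07 for HYOU1 (adjusted p = 0.00047). For DNAJB9 it was -0.00 (adjusted p = 0.991). Of 21 alternatives, 13 lost the call for PDIA6, 11 that for SDF2L1 and 5 that for CANX.

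The siControl libraries gave a second reference for the wild-type level. This comparison shares its siControl libraries with the knockdown comparison and its wild-type libraries with the genotype comparison, and experiment and genotype cannot be told apart in it. In limma, 8 of 10 members were called higher in wild type than in siControl, where 14.8% of all tested genes were. No member was called lower, at an adjusted or an unadjusted p under 0.05, where 24.8% of tested genes were called. In 9 members both wild-type libraries lay above all siControl libraries, where 24.1% of tested genes did so. The median was 0.49, beside -0.06 for all tested genes.

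HYOU1 and HSPA5 stood highest over siControl, at 180.8% and 177.3% of its mean TPM. Their log2 fold changes were 0.85 ± 0.05 (SE, limma adjusted p = 6.25e-06) and 0.82 ± 0.03 (adjusted p = 1.04e-06). SDF2L1 followed at 0.65 ± 0.09 (adjusted p = 0.000646), and PDIA6, CALR, PDIA4, PDIA3 and HSP90B1 rose by 0.51, 0.50, 0.48, 0.37 and 0.28. CANX (0.13, 95% interval -0.02 to 0.28) and DNAJB9 (0.02, -0.23 to 0.28) were not called.

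Against the same siControl libraries, N352S cells were mixed. PDIA6 (0.87 ± 0.06, SE, limma adjusted p = 6.34e-06), HYOU1 (0.39), PDIA4 (0.16) and CALR (0.12, adjusted p = 0.0476, a call that 14 of 22 alternatives lost) were higher, 4 of 10 where 19.6% of all tested genes were. CANX (-0.29), HSP90B1 (-0.25) and HSPA5 (-0.17) were lower, 3 of 10 where 33.6% were. With median-of-ratios scaling, 5 were called higher and 2 lower, and HSPA5 was at -0.06 and not called (adjusted p = 0.155). Of all tested genes, 25.6% lay wholly above and 41.2% wholly below siControl, as 4 and 3 members did. For PDIA3 (-0.05, 95% interval -0.15 to 0.05), SDF2L1 (0.19, -0.02 to 0.39) and DNAJB9 (-0.15, -0.41 to 0.10) no difference was called. SDF2L1 was called higher with median-of-ratios scaling (0.29, adjusted p = 0.0232), with quantile normalization (0.29, 0.0238) and without N352S 81 (0.32, 0.0267). HSPA5 thus stood at 151.7 TPM in N352S and 150.7 TPM in siTDP-43 libraries on average, beside 171.3 TPM in siControl and 303.7 TPM in wild type.

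**Figure D4:**
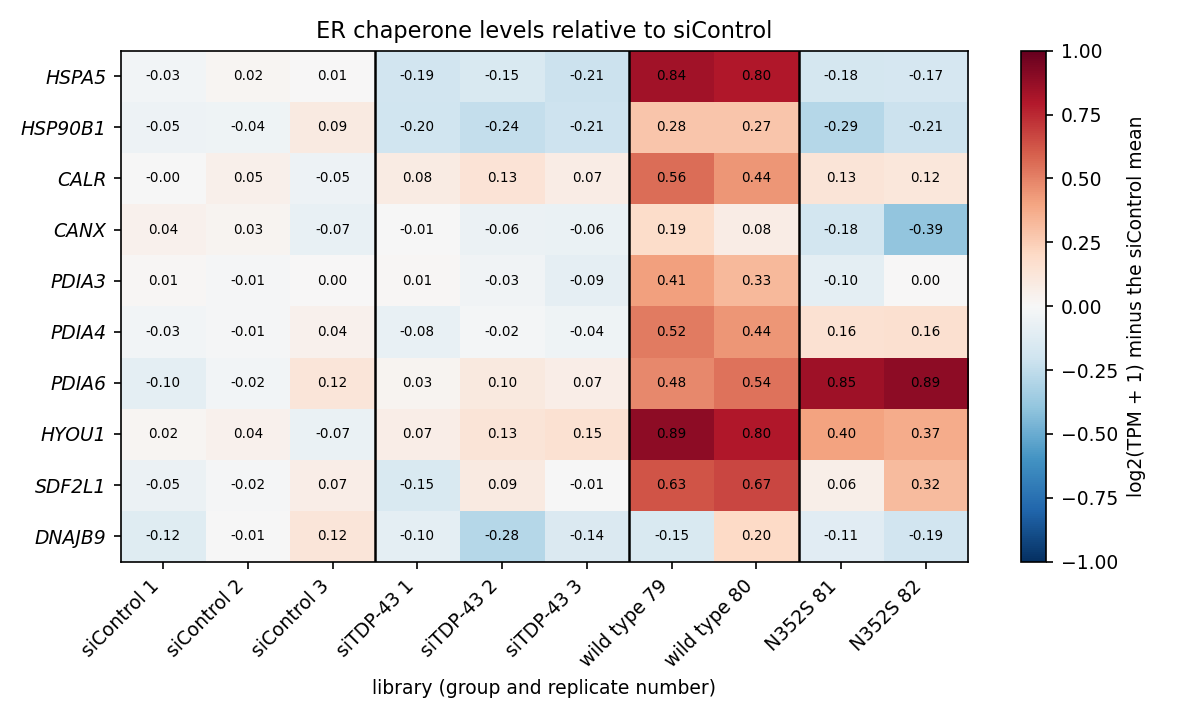
Log2(TPM + 1) of each ER chaperone (vertical axis) in each library (horizontal axis) minus its siControl mean, as colour and number. The wild-type columns are red for 8 genes, CANX and DNAJB9 being near 0, and the N352S columns are darkest at PDIA6, whose mean lies 0.87 above siControl.

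Regulators of the unfolded protein response were read beside the chaperones. Of 19 tested sensors and factors, 9 fell after knockdown, where 19.8% of all tested genes did, with a median of -0.11. None was called higher in limma, where 6.19% of all tested genes were, and 2 were higher at an unadjusted p under 0.05. With the alternatives other than the 1.5-fold minimum, between 5 and 9 were called lower and between 0 and 3 higher. MBTPS2, the protease that frees ATF6, fell from 33.7 to 20.3 TPM (log2 -0.70, adjusted p = 3.76e-05). EIF2AK3 fell from 24.3 to 17.1 TPM (-0.49, 0.000944), PPP1R15B, a phosphatase subunit that reverses PERK signalling, from 36.9 to 26.7 TPM (-0.45, 0.000579), and ERN1 from 4.95 to 2.80 TPM (-0.64, 0.00299). NFYB, a subunit of NF-Y, fell from 45.8 to 35.1 TPM (-0.37, 0.000981). ATF6, XBP1, ATF4 and NFYA were lower by 0.10 to 0.21, and at least 10 of 23 alternatives lost each of those 4 calls.

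The same regulators were split in N352S, with 2 called higher and 3 lower of 19 (median -0.05). Over all tested genes, 8.28% were called higher and 11.9% lower, so these counts are near the background. XBP1 fell from 148.7 to 113.6 TPM (log2 -0.39, limma adjusted p = 0.00178), and ATF4, the factor translated when PERK is active, from 428.3 to 363.3 TPM (-0.24, 0.0013). DDIT3, which encodes CHOP, fell from 51.7 to 44.1 TPM (-0.22, 0.0278), a call lost in 8 of 22 alternatives. EIF2AK3 rose from 13.6 to 19.3 TPM (0.47, 0.00373), and CREB3L4 rose from 18.4 to 23.8 TPM (0.36, 0.0137), a call lost in 6 of 22 alternatives. In wild-type cells DDIT3, ATF4 and XBP1 were higher than in siControl by 1.79, 1.42 and 1.31 on the log2 scale (adjusted p = 1.5e-07, 3.1e-08 and 8.77e-07), and EIF2AK3 was lower by 0.79. In N352S cells DDIT3, ATF4 and XBP1 were also higher than in siControl, by 1.56, 1.18 and 0.92 (limma adjusted p = 1.23e-07, 3.21e-08 and 2.02e-06). EIF2AK3 was lower there as well (-0.32). Of the list, 6 were called higher and 5 lower in wild type against siControl, where 14.8% and 24.8% of all tested genes were. In N352S against siControl, 6 were higher and 6 lower, where 19.6% and 33.6% were.

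The wider folding machinery was split between directions. Of 45 other tested ER folding enzymes and cochaperones, 7 rose and 9 fell in N352S (median -0.02), and 7 rose and 13 fell after knockdown (median -0.06). Over all tested genes, 8.28% were called higher and 11.9% lower in N352S, and 6.19% higher and 19.8% lower after knockdown, and the counts of the lists that follow are to be read beside these shares. With the alternatives other than the 1.5-fold minimum, 5 to 9 of the 45 were higher and 6 to 10 lower in N352S, and 3 to 13 higher and 7 to 14 lower after knockdown. PPIC, a prolyl isomerase, rose from 7.40 to 17.6 TPM (log2 1.15, limma adjusted p = 0.000428) and the disulfide isomerase PDIA5 from 16.0 to 30.4 TPM (0.89, 6.31e-05) in N352S. MANF, an ER stress protein that binds BiP, fell in both comparisons, from 160.9 to 138.3 TPM after knockdown (-0.22, 0.00464) and from 235.4 to 177.0 TPM in N352S (-0.41, 0.000565). After knockdown, TXNDC16 (-0.72) and UGGT2 (-0.40), a glycoprotein folding sensor, fell and FKBP10 (0.40), a prolyl isomerase for collagen, rose.

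ER-associated degradation, which removes chains that fail to fold, had 9 of 29 tested genes lower and 1 higher in N352S, and 8 lower and 2 higher after knockdown. With the same alternatives, the counts were 3 to 11 lower and 0 to 3 higher in N352S, and 1 to 9 lower and 1 to 4 higher after knockdown. UBE2J2, a ubiquitin-conjugating enzyme of the ER membrane, fell from 76.5 to 34.6 TPM in N352S (log2 -1.12, limma adjusted p = 5.47e-06), and it lies between the end of 1p and TARDBP. CRELD2, which is also in the list of other ER folding genes, fell from 54.8 to 37.4 TPM (-0.54, 0.0032). FAM8A1 rose by 0.32 on the log2 scale (0.00702), a call lost in 3 of 22 alternatives. After knockdown UBE2G2 (-0.37) fell and OS9 (0.21), a lectin that delivers glycoproteins for degradation, rose.

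Of 40 translocation and N-glycosylation genes, 4 were higher and 5 lower in N352S, and 5 higher and 8 lower after knockdown. With the same alternatives, 2 to 4 were higher and 1 to 6 lower in N352S, and 4 to 12 higher and 6 to 9 lower after knockdown. OST4 (log2 0.43, limma adjusted p = 0.00628) and SSR4 (0.38, 0.000805) rose in N352S. MAGT1, an oxidoreductase subunit of the oligosaccharyltransferase, fell in both comparisons, by 0.37 in N352S and by 0.59 after knockdown, whereas SSR2 (0.28) and OSTC (0.29) rose after knockdown. Of 35 genes of KDEL receptors and of COPII and COPI transport, which return and carry ER proteins, 5 fell in N352S and 11 fell and 1 rose after knockdown. With the alternatives, 2 to 8 fell in N352S, and 5 to 15 fell and 1 to 4 rose after knockdown. SURF4, a cargo receptor, fell by 0.29 in N352S (adjusted p = 0.00229), and the coat subunit COPG2 by 0.62 after knockdown (4.14e-05).

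Among 20 tested genes listed under ER calcium handling, 7 fell and 2 rose in N352S, and 5 fell and 3 rose after knockdown. The name of the list does not place every product in the ER. With the same alternatives, 4 to 7 fell and 1 to 3 rose in N352S, and 2 to 7 fell and 1 to 6 rose after knockdown. RCN1, an ER calcium-binding protein, fell from 83.6 to 44.1 TPM in N352S (log2 -0.91, limma adjusted p = 0.000391) and from 33.2 to 18.1 TPM after knockdown (-0.84, 0.000216). The calcium pump gene ATP2A2 fell from 189.2 to 140.6 TPM in N352S (-0.43, 8.49e-05). SDF4 fell from 92.4 to 49.7 TPM (-0.88, 9.78e-06) and lies, like UBE2J2, between the end of 1p and TARDBP.

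The counterparts of these chaperones in other compartments were also read. Of 21 tested HSP70, HSP90 and DnaJ genes of the cytosol and mitochondria or related to them, 8 fell and 1 rose in N352S (median -0.12), and 11 fell after knockdown (median -0.15). With the same alternatives, 7 to 9 fell in N352S and 6 to 12 after knockdown. HSPA13 is in this list and also in that of the other ER folding genes. HSPA12A, a distant HSP70 relative, fell from 24.7 to 14.1 TPM after knockdown (log2 -0.77, limma adjusted p = 0.000176) and rose from 33.2 to 48.2 TPM in N352S (0.52, 0.00387). HSPA9, the mitochondrial HSP70, fell from 311.2 to 224.2 TPM in N352S and from 260.7 to 196.6 TPM after knockdown (log2 -0.47 and -0.41, limma adjusted p = 0.000235 and 0.000201). HSPA8, the constitutive cytosolic HSP70, fell from 911.7 to 625.6 TPM in N352S (-0.54, 2.58e-05). In wild type against siControl, 14 of 21 were lower and 2 higher, where 24.8% and 14.8% of all tested genes were.

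**Figure D5:**
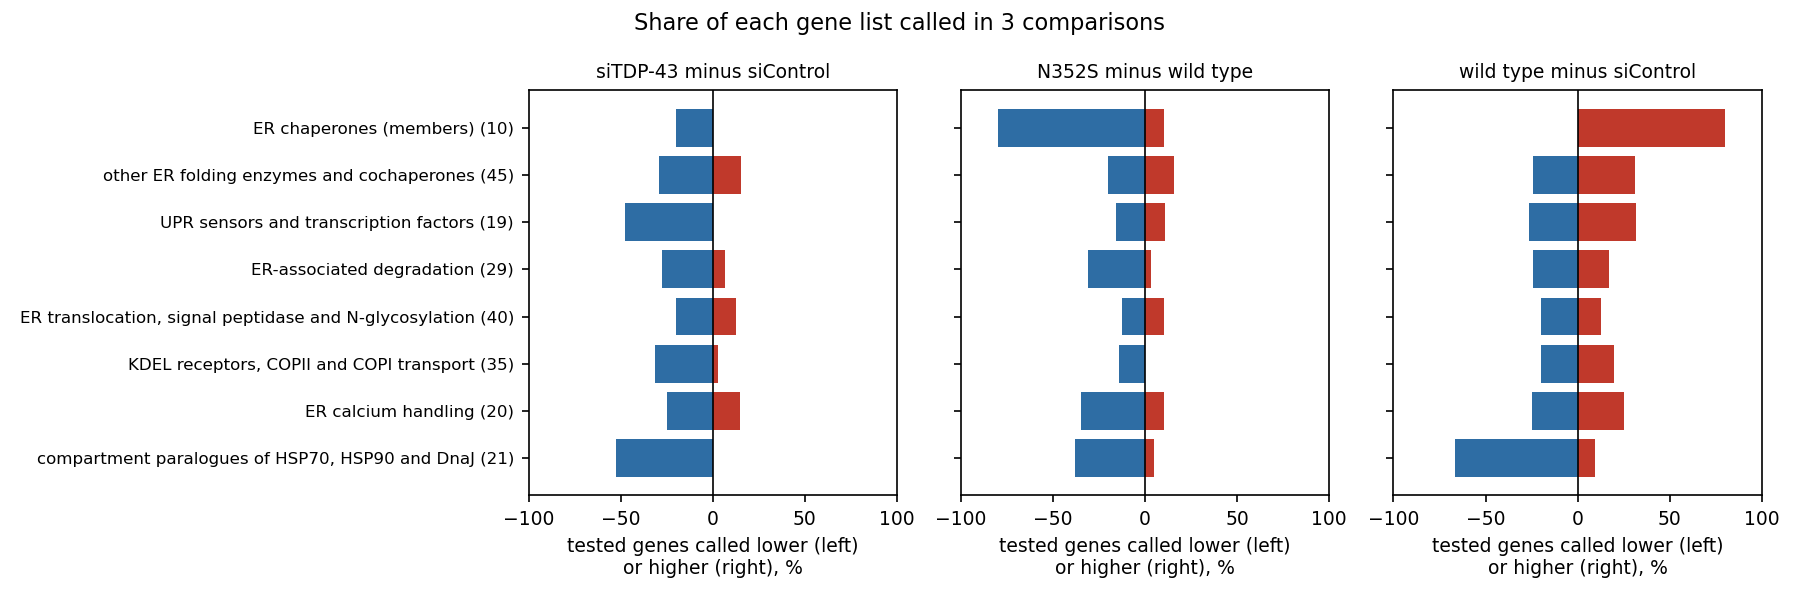
Percent of the tested genes of each list (vertical axis, number tested in brackets) that were called lower (left, blue) or higher (right, red) in 3 comparisons. The 10 ER chaperones have 8 genes lower and 1 higher in N352S, while the 45 other ER folding genes have 9 lower and 7 higher.

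Genes with the same motifs outside the list were counted as a description. Of the 37 other symbols with an ERSE or ERSE-II match, 23 were tested, and in N352S 6 were called lower and 2 higher, where 11.9% and 8.28% of all tested genes were, with a median log2 fold change of 0.01. CAMTA1, which lies between the end of 1p and TARDBP, had the largest fall of the 6, from 108.3 to 49.9 TPM (-1.10, limma adjusted p = 1.53e-06). HERPUD1, a degradation factor of the ER membrane, stood at 137.3 TPM in wild type and 87.5 TPM in N352S libraries (-0.64, limma adjusted p = 0.0116). SERP1 stood at 78.3 and 61.8 TPM (-0.33, 0.0183), ALG12, a mannosyltransferase, at 12.8 and 8.12 TPM (-0.59, 0.0283), and XBP1 and CRELD2, given above, were also lower. NAV2 (0.86) and SYNPO (0.36) were the higher ones. These genes were named after their values were seen. After knockdown, 0 of the 23 were called higher and 5 lower (median -0.05), where 6.19% and 19.8% of all tested genes were. In wild type against siControl, 8 were called higher and 2 lower (median 0.13), where 14.8% and 24.8% were.

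Over the 10 libraries, the genes whose log2(TPM + 1) most resembled the members' mean standardised level were taken from the 9993 whose mean reached 10 TPM. Pearson's r was 0.992 for SYT5, a synaptotagmin, 0.979 for MAT2A, which makes S-adenosylmethionine, 0.972 for the stress factor ATF5, 0.966 for the asparaginyl-tRNA synthetase NARS and 0.955 for UNC13A, a presynaptic priming factor. AGRN, PLEKHG5 and TNFRSF25, 3 of the 10 most alike genes, lie between the end of 1p and TARDBP, and APC2 and TRAF3IP2 complete the list. The share of the 9993 compared genes that lie in this stretch is not given, so the count of 3 is a description only. The points share libraries and groups, so these values describe a likeness of group pattern only. ATF5, for example, stood at group means of 13.1 TPM in the control and 9.63 TPM in the knockdown libraries, and of 31.2 TPM in wild type against 14.0 TPM in N352S.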

How the data were processed

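Per the labels' protocols, Trizol was used for total RNA and a TruSeq RNA kit for the libraries. The authors deposited TPM per gene, and the submitters' processing notes name STAR, RSEM and hg38. Versions and annotation were not given in the sources used here. TPM are shares of a fixed total and keep no depth, so no counting interval is given. Strand-specific counting is not stated.

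From these values, log2(TPM + 1) of the 17118 genes whose mean reached 1 TPM was fitted with limma 3.58.1 under R 4.3.3, using a trend of variance on mean, on the means of all 4 groups (6 residual degrees of freedom, pairs assumed to vary like the other libraries). Genes were called at a Benjamini-Hochberg adjusted p under 0.05 over all tested genes. Fold changes understate the change of low genes. The procedure was tested on simulated data. Positions came from GENCODE 29 (57836 of 58174 identifiers, 99.4%), promoters from RefSeq, and figures from matplotlib 3.10.9.

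Members and lists were chosen with earlier results of these data known, and some genes are in several lists. Named genes are the members, TARDBP, the response regulators, up to 3 genes per list and comparison with the smallest adjusted p (mean of at least 5 TPM), and the 10 most alike genes. CAMTA1, HERPUD1, SERP1, ALG12, NAV2 and SYNPO fall outside this rule. A gene that the rule takes is not reported here. Replicate numbers 1 to 3 of the siRNA libraries were taken to pair them, since same-numbered deviations from group means correlated at 0.336, 0.137 and 0.198, all above 0.1. Differently numbered ones correlated at -0.267 to 0.091. The main fit leaves this pairing out, and the replicate number as a block was an alternative. Alternatives changed the pseudocount (0.1 or 5), filter (none or 5 TPM), scaling, groups fitted, trend, threshold (adjusted p under 0.01, or 1.5-fold), block and libraries.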

Additional observations from a re-analysis of the deposited data

Results flagged for a closer look

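For 9 of the 10 chaperones, the effect in the genotype experiment differed from that in the knockdown experiment by a test of the difference itself (limma, adjusted over all tested genes). The difference, N352S effect minus knockdown effect on the log2 scale, was -0.8125 for HSPA5, -0.5784 for HYOU1, -0.4701 for CALR, -0.4357 for SDF2L1, -0.3833 for PDIA3, -0.376 for CANX, -0.3119 for HSP90B1 and -0.2778 for PDIA4. It was 0.2951 for PDIA6. Over all tested genes, 22.0% were called in either direction. The call was lost in 13 of 21 alternatives for PDIA6, 11 for SDF2L1 and 5 for CANX.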

How the results depend on the processing

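Depth is unknown, the genotype groups have 2 libraries each, and small changes such as those after knockdown move with the scaling. In the knockdown comparison (2 members lower, 0 higher), median-of-ratios scaling gave 1 lower and 2 higher, quantile normalization 2 higher and removal of mitochondrially encoded genes 1 higher. With the replicate number as a block, the pairing left 2 members lower and 0 higher, with 857 genes higher and 2697 lower over all tested genes (1059 and 3389 without it), and it changed no other call of a member.

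A minimum of 1.5-fold left 0 knockdown members lower, 1 lower and 0 higher in N352S, 1 lower and 0 higher in the difference of effects, 3 higher in wild type against siControl, and 0 lower and 1 higher in N352S against siControl. For the difference of effects, an adjusted p under 0.01 left 5 lower, and 0 were higher with no filter, quantile normalization, no trend, or that threshold. Leaving out each library in turn gave 2 lower and 0 higher after knockdown, 7 to 8 lower and 1 higher in N352S, 6 to 8 lower and 0 to 1 higher for the difference, 0 lower and 8 higher in wild type, and 3 lower and 3 to 4 higher in N352S against siControl.

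The direction of some uncalled values turned, and leaving out single libraries moved SDF2L1 after knockdown from -0.0793 to 0.0423, the DNAJB9 difference of effects from -0.1781 to 0.1715 and PDIA3 in N352S against siControl from -0.1007 to 0.0004. After knockdown, median-of-ratios scaling and quantile normalization gave 0.0432 and 0.0478 for CANX, 0.0496 and 0.0386 for PDIA3, 0.0406 and 0.0297 for PDIA4 and 0.0616 and 0.0698 for SDF2L1. Without mitochondrially encoded genes PDIA3 was 0.0041 and SDF2L1 0.0174, and SDF2L1 was 0.0124 without siControl 3 and 0.0423 without siTDP-43 1. The DNAJB9 difference of effects was between 0.0125 and 0.1715 without siControl 1 (0.0555), siTDP-43 1 (0.036), siTDP-43 3, wild type 80 or N352S 82 (0.0384). DNAJB9 in wild type against siControl was -0.0342 without siControl 1 and -0.1502 without wild type 80. PDIA3 in N352S against siControl was 0.0602 with median-of-ratios scaling and 0.0004 without N352S 81. The causes were not tested.

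Calls of the difference of effects were lost in 13 of 21 alternatives for PDIA6 (adjusted p up to 0.2), 11 of 21 for SDF2L1 (up to 0.122) and 5 of 21 for CANX (up to 0.0828). SDF2L1 in N352S was lost in 6 of 22, and CALR in N352S against siControl in 14 of 22. CANX in wild type was called with median-of-ratios scaling (0.20, adjusted p = 0.0418), and PDIA6 after knockdown with quantile normalization (0.17, 0.03).

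Over all tested genes, the share of calls that were lower went with median-of-ratios scaling from 76.2% to 51.7% after knockdown (1944 higher, 2077 lower), 58.9% to 47.4% in N352S (1846 and 1666), 62.6% to 49.9% in wild type and 63.2% to 49.6% in N352S against siControl. Without single libraries, the N352S calls ranged from 1019 to 2194 lower and 813 to 1554 higher, and those after knockdown from 2505 to 3431 and 669 to 1071. Fitting only the genotype groups called 990 lower and 901 higher.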
